A study of Mus musculus with 44 samples.

Results

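The 8 genes described here encode forkhead transcription factors of the FoxO (Foxo1, Foxo3, Foxo4), FoxC (Foxc1, Foxc2) and FoxP (Foxp1, Foxp2, Foxp4) families. They were chosen by gene symbol and are 8 of 46831 genes in the count table. They were measured by SLIM-seq, in which an antibody pulls down RNA that carries N6-methyladenosine (m6A). The pulled-down RNA (IP) and the starting RNA (input) each gave a library. The 44 libraries are 2 IP and 2 input libraries for each of 8 WT populations and for 3 of the same populations labelled Mettl3cko. All cells were sorted from long bones of C57Bl6 mice (C57BL/6J in the study's methods) at postnatal day 3, without regard to sex and from several litters. WT mice carried Mettl3 fl/fl without Cre, and knockout mice carried Mettl3 fl/fl with Col2a1-Cre, a Cre driven by the promoter of a cartilage collagen. The gates used CD51, Thy1, 6C3, CD105 and CD200 after exclusion of CD45, Ter119 and Tie2. SSC (skeletal stem cell), pBCSP (pre-bone, cartilage and stromal progenitor) and BCSP (bone, cartilage and stromal progenitor) stand at the top of the hierarchy. PCP (pro-chondrogenic progenitor), THY (Thy1+ population), BLSP (B lymphocyte stromal progenitor), 6C3 (6C3+ stroma) and HEC (named in the study for expression of hepatic leukemia factor) are its downstream populations.

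Forkhead factors bind DNA through a winged-helix domain. FoxO factors are held out of the nucleus when AKT or SGK phosphorylates them downstream of insulin and growth factor signalling, and in the nucleus they switch on genes for cell cycle arrest, stress resistance and autophagy. In the skeleton they are known for protecting cartilage and osteoblasts from oxidative stress. FoxC factors are needed for the formation of the skull, vertebrae and other mesenchyme, and Foxc1 is also needed by marrow stromal cells that support blood stem cells. FoxP factors act mostly as repressors, pair with one another, and are known in the perichondrium and osteochondral progenitors. m6A is written on mRNA by the METTL3 and METTL14 enzyme complex and is read by proteins that alter the stability and translation of the transcript.

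The totals were 19853970 to 44219035 counts in the 16 WT input libraries, 16506779 to 35890123 in the 16 WT IP libraries, 30059074 to 35341482 in the 6 input libraries labelled Mettl3cko and 22085115 to 33154761 in the 6 IP libraries labelled Mettl3cko. Across genes, which are not independent replicates, log2 CPM (counts scaled to library size) of the 2 libraries of a group correlated at 0.954 to 0.977 in WT input and 0.890 to 0.924 in WT IP. The 3 pairs of IP libraries labelled Mettl3cko stood apart, at 0.803 to 0.844. Mettl3 itself was not lower in the input libraries labelled Mettl3cko, with 16.2 to 22.8 CPM against 12.1 to 19.7 CPM in the 6 WT libraries of the same populations. Counts over the whole gene do not show the loss of a floxed exon. All 44 libraries are entered as wild type under genotype. The assignment to Mettl3cko thus rests on the titles and on the names of the count columns, which mark these libraries as KO. In its knockout mice the study reported deletion of Mettl3 by PCR and by Western blot in SSC. It also reported less m6A in stem and progenitor cells by dot blot, and on Fem1b in SSC by PCR after m6A pull-down. From its m6A profiles it reported lower m6A levels in knockout than in WT for SSC, pBCSP and BCSP. The sort was visible in part: Thy1 was at 28.5 CPM in THY, 27.7 in BLSP and 21.1 in PCP on average, and Enpep (6C3) was at 43.1 CPM in 6C3 and 54.9 in HEC. Ptprc (CD45), excluded in the sort, was at 0.805 CPM or less on average in every WT population, and Tek (Tie2), also excluded, was highest in PCP at 7.20 and THY at 6.31.

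The members lie on 7 chromosomes of GRCm38 (GENCODE vM21). Foxo1 is at chr3:52268336-52353221, Foxo3 at chr10:42181841-42276755, Foxo4 at chrX:101254528-101260873, Foxc1 at chr13:31806633-31812476, Foxc2 at chr8:121116171-121118895, Foxp1 at chr6:98925338-99522721, Foxp2 at chr6:14901349-15441977 and Foxp4 at chr17:47867133-47924645. Foxc1 and Foxc2 each consist of 1 exon, so every base of either gene is exonic. An antisense gene, Gm20402, shares 674 exon bases with Foxo1, and Gm20696 shares 300 with Foxp1 on the same strand. The library chemistry does not mark strand, so reads of these overlaps cannot be assigned to one gene.

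The antibody binds methylated adenosine, and a frequent form of the sequence METTL3 methylates is GGACU, written GGACT in DNA. The annotated transcript taken for each member held between 3 and 13 copies of GGACT on its sense strand, and 87.3% of 20926 protein-coding transcripts held at least 1. Per kilobase the density was 1.5 in Foxo1, 1.27 in Foxo4, 1.18 in Foxp2, 1.10 in Foxc2, 0.938 in Foxp4, 0.730 in Foxo3, 0.685 in Foxc1 and 0.427 in Foxp1, against a median of 1.01 over all these transcripts. The ratio of IP to input was high for Foxc1 in all 8 populations, and the log2 ratio of Foxc2 was below 0 in all 8. The ratios of Foxo3 and Foxp4 differed between stem and downstream populations. The windows of 21 bases around the motif (in capitals, 5′ to 3′ on the gene's own strand, GRCm38) are shown for Foxc1, Foxc2, Foxo3 and Foxp4.
Foxc1 5′ UTR chr13:31807110-31807130: cgcggcccGGACTcggactcg
Foxc1 5′ UTR chr13:31807116-31807136: ccggactcGGACTcggcggcc
Foxc1 coding chr13:31807667-31807687: ctcgacccGGACTcctacaac
Foxc1 3′ UTR chr13:31809321-31809341: ttattcatGGACTtgttttta
Foxc2 5′ UTR chr8:121116187-121116207: cctaaaagGGACTttgcttct
Foxc2 coding chr8:121117053-121117073: ctcgacccGGACTcctacaac
Foxc2 coding chr8:121117966-121117986: accggctaGGACTggacaact
Foxo3 coding chr10:42196759-42196779: accctctcGGACTctctctca
Foxo3 3′ UTR chr10:42184245-42184265: ttggtggaGGACTaactggct
Foxo3 3′ UTR chr10:42183295-42183315: tagctctaGGACTgactgggc
Foxo3 3′ UTR chr10:42182909-42182929: catcccccGGACTaagggaaa
Foxo3 3′ UTR chr10:42182641-42182661: gtcaaacaGGACTagagaaag
Foxp4 coding chr17:47871269-47871289: ggccgtgtGGACTgtggatga
Foxp4 3′ UTR chr17:47868543-47868563: cacttcggGGACTcagacggg
Foxp4 3′ UTR chr17:47868438-47868458: gaacccttGGACTgggacccg
The coding windows ctcgacccGGACTcctacaac of Foxc1 and Foxc2 are the same 21 bases. A match is a place where the letters occur, not a measured m6A site, since the ratio of IP to input is per gene and does not place m6A within it.

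Input RNA was first compared among the 8 WT populations, to see how each factor is expressed over the hierarchy. All 8 members passed edgeR's quasi-likelihood F test among populations at a Benjamini-Hochberg adjusted p under 0.05, where 40.1% of 20060 tested genes did so. Foxo1, Foxo3, Foxo4, Foxc1 and Foxp2 were higher in SSC, pBCSP and BCSP than in the downstream populations, and Foxc2, Foxp1 and Foxp4 were lower. The test over the 16 WT input libraries, of the mean of the 3 populations against the mean of the 5, called 51.4% of all genes, 23.1% higher and 28.3% lower, and 5 members were called higher and 3 lower. Among the 8 populations, Foxo1 did not pass without BCSP 1, BLSP 1, BLSP 2, HEC 1, SSC 1, THY 1 or THY 2 (adjusted p 0.0518 to 0.111), Foxc1 without BCSP 1 (0.0745) and Foxo3 without THY 1 (0.0551), where the number is the replicate. The median log2 fold change was -0.11 over all tested genes. Levels per gene length, which alone can be compared between genes, ranked Foxc2 first with a mean over the 16 libraries of 17.9 CPM per kilobase of exon, then Foxo3 with 14.2, Foxp1 with 6.81, Foxp4 with 4.79, Foxo1 with 4.72, Foxc1 with 2.39, Foxp2 with 1.56 and Foxo4 with 0.609. This order rests on the length taken, here all exon bases of a gene. Per kilobase of the annotated transcript used for the motif search, a length chosen after seeing the data, Foxp2 was at 3.78 and so above Foxc1, Foxp1 was at 13.3 and Foxp4 at 7.38, and no other pair of members changed places. In these bulk samples a lower level may mean fewer cells that express a gene or less RNA per cell, and these cannot be told apart.

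**Figure D1:**
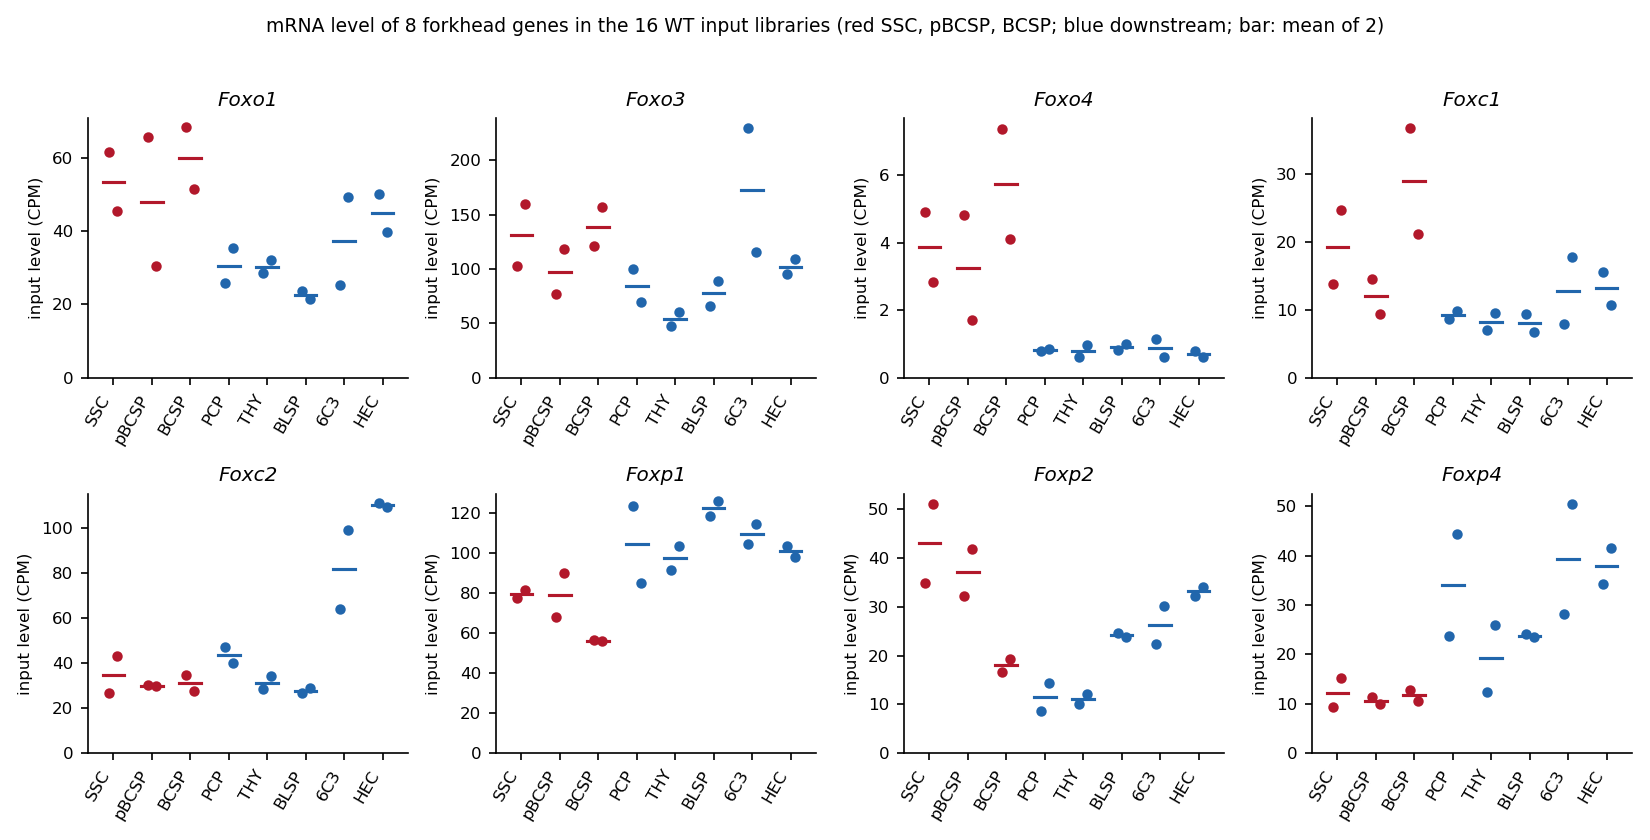
Input mRNA of each forkhead gene in the 8 WT populations, in TMM-scaled CPM on a linear axis from 0, with 1 point per library (2 per population, red for SSC, pBCSP and BCSP, blue for downstream) and a bar at their mean. Foxo4 is at 1.71 CPM or more in all 6 red libraries and at 1.15 or less in all 10 blue ones, while Foxc2 is highest in 6C3 and HEC.

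Foxo4 was the least abundant member and separated the populations most clearly. Its level was 7.35 and 4.12 CPM in BCSP, 4.82 and 1.71 in pBCSP and 4.91 and 2.83 in SSC. In the 10 downstream libraries the lowest, median and highest were 0.608, 0.809 and 1.15 CPM. No downstream library reached the lowest stem or progenitor library, and Foxo4 was the only member of which this held. Of 20060 genes, 7.92% had all 6 libraries above all 10. The log2 fold change was 2.34 (SE 0.30, 5.05-fold, edgeR adjusted p = 9.2e-06). In the order of means, the step from pBCSP down to BLSP was past the threshold (adjusted p = 0.0438), and no other step between neighbours in the order of any member was. The downstream values rest on 13 to 46 counts per library, so differences among those 5 populations were not detectable at this depth.

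Foxo1 and Foxo3, the more abundant FoxO factors, differed less and overlapped between sides. Foxo1 was at 68.5 and 51.4 CPM in BCSP, 65.6 and 30.5 in pBCSP and 61.6 and 45.4 in SSC. The downstream libraries ranged from 21.4 CPM in BLSP to 50.1 in HEC with a median of 30.3. The pBCSP library at 30.5 CPM lay within the downstream range, and so did the SSC library at 45.4. Foxo1 was 0.73 higher on the log2 scale (SE 0.17, adjusted p = 0.00245), and its mean fell in the order BCSP, SSC, pBCSP, HEC, 6C3, PCP, THY, BLSP.

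Foxo3 was at 121 and 157 CPM in BCSP, 76.9 and 118 in pBCSP and 102 and 159 in SSC, against a downstream range of 47.9 to 230 CPM with a median of 92.0. The 2 6C3 libraries disagreed, at 230 and 116 CPM, and gave the highest mean of all populations, while THY gave the lowest at 47.9 and 60.3 CPM. The log2 difference between sides was 0.42 (SE 0.17, adjusted p = 0.0466). Leaving out 1 library at a time gave 0.29 to 0.52. The call was lost at 0.29 to 0.44 without any one of 6C3 2, BCSP 2, BLSP 1, HEC 1, HEC 2, pBCSP 2, PCP 2, SSC 2 or THY 1.

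Foxc1 and Foxc2, close relatives with a nearly identical DNA-binding domain, moved in opposite directions. Foxc1 was at 36.7 and 21.2 CPM in BCSP, 14.5 and 9.43 in pBCSP and 13.8 and 24.7 in SSC, and downstream at 6.73 to 17.7 CPM with a median of 9.42. The highest library was of BCSP, and both pBCSP libraries and 1 SSC library lay within the downstream range. The log2 difference was 0.90 (SE 0.21, adjusted p = 0.00190).

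Foxc2 was at 111 and 109 CPM in HEC and 64.1 and 99.3 in 6C3, against 47.3 and 40.0 in PCP and 26.6 to 34.2 in the 4 THY and BLSP libraries. SSC, pBCSP and BCSP held 26.6 to 43.0 CPM. HEC and 6C3 thus stood above every other library, and SSC, pBCSP and BCSP did not stand below THY and BLSP. Foxc2 was 0.67 lower in the stem and progenitor populations (SE 0.14, adjusted p = 6.7e-04). Of the 28 pairs of populations, 11 differed for Foxc2 and 6 for Foxc1, and the share of all genes called per pair had a median of 19.6%.

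Foxp1 and Foxp4 were both lower in SSC, pBCSP and BCSP. Foxp1 was lowest in BCSP, at 56.7 and 55.9 CPM, and reached 77.5 and 81.3 in SSC and 68.2 and 89.9 in pBCSP. The downstream libraries held 85.0 to 126 CPM with a median of 104, and BLSP was highest at 118 and 126. A single pBCSP library overlapped the lowest PCP library, and the log2 difference was -0.59 (SE 0.11, adjusted p = 3.1e-04).

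Foxp4 was at 12.8 and 10.7 CPM in BCSP, 11.3 and 9.86 in pBCSP and 9.35 and 15.1 in SSC. Downstream it ranged from 12.4 CPM in THY to 50.5 in 6C3 with a median of 27.1. Apart from the THY library at 12.4 CPM, all downstream libraries exceeded all stem and progenitor libraries. The log2 difference was -1.37 (SE 0.21, adjusted p = 4.5e-05).

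Foxp2, known for its roles in brain circuits and in cartilage, differed from its relatives in direction and in the populations involved. It was at 34.9 and 51.1 CPM in SSC and 32.3 and 41.9 in pBCSP, but at 16.7 and 19.2 in BCSP. HEC was at 32.3 and 34.0 CPM, above both BCSP libraries, and THY, at 10.01 and 12.2, and PCP, at 8.70 and 14.3, had the lowest means. The log2 difference between sides was 0.67 (SE 0.14, adjusted p = 9.9e-04), and 10 of 28 pairs of populations differed for Foxp2.

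The balance between relatives shifted along with these levels. Per kilobase of exon, the ratio of Foxp2 to Foxp4 was 0.394 to 1.28 in the 6 stem and progenitor libraries (median 0.940) and 0.0974 to 0.306 in the 10 downstream libraries (median 0.241). The 2 ranges did not overlap. The share of all gene pairs whose ratio separates in this way was not computed. Of single genes, 7.92% had all 6 libraries above all 10 and 8.60% had all 6 below. Per kilobase of the annotated transcripts the ranges of the Foxp2 to Foxp4 ratio were 0.618 to 2.01 and 0.153 to 0.481. The ratio of Foxc1 to Foxc2 was 0.147 to 0.492 (median 0.254) against 0.0458 to 0.164 (median 0.0965), with a small overlap. Foxc2 was thus the more abundant FoxC transcript per length in all 16 libraries. The ratio of Foxo3 to Foxo1 overlapped broadly, at 1.34 to 4.45 and 1.92 to 10.4, and Foxo3 was above Foxo1 in every library. The ratio of Foxp1 to Foxp4 overlapped too, at 1.59 to 3.27 and 0.687 to 2.65. These ratios restate the levels above and carry no test.

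**Figure D2:**
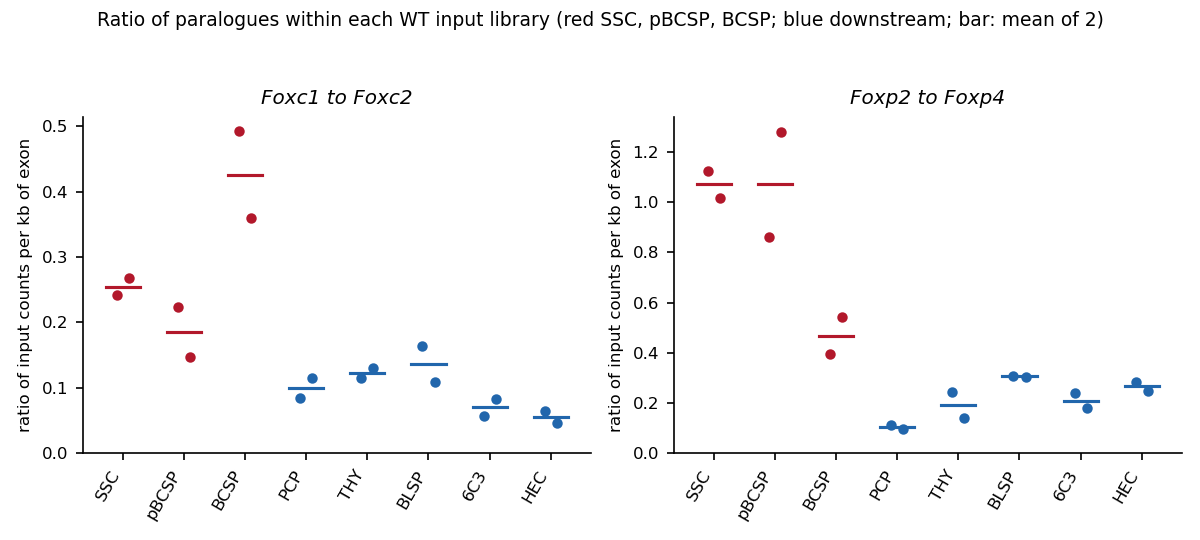
Ratio of Foxc1 to Foxc2 (left) and of Foxp2 to Foxp4 (right) in each WT input library, from counts per kilobase of exon on a linear axis from 0, with 1 point per library and a bar at the mean of 2 (red for SSC, pBCSP and BCSP, blue for downstream). Foxp2 over Foxp4 separates the colours (0.394 and above against 0.306 and below), while Foxc1 over Foxc2 overlaps between 0.147 and 0.164.

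The downstream populations were not alike, and this touches 5 of the 8 results. Chondrocyte markers (Col2a1, Acan, Sox9, Matn1, Col9a1) summed on average to 88325 to 92662 CPM in SSC, pBCSP and BCSP, to 62672 in 6C3 and 86774 in HEC, and to 7015 to 17563 in PCP, THY and BLSP. Col2a1 made up most of these sums, and Matn1, a cartilage matrix gene of the same list, was at means of 1122 to 1570 CPM in SSC, pBCSP and BCSP but at 4.69 in 6C3, 3.44 in HEC and 9.96 to 18.5 in the other 3. 6C3 and HEC thus stood above PCP, THY and BLSP in Col2a1 and Sox9 but not in Matn1. Osteoblast markers (Col1a1, Runx2, Sp7, Bglap, Ibsp) summed to 6181 to 11140 CPM in SSC, pBCSP and BCSP and to 71209 to 137304 in the 5 downstream populations. Col1a1 made up most of this sum, and the other 4 did not follow it. Ibsp, a bone matrix gene, was at 1216 CPM in SSC, 61.0 in pBCSP and 2374 in BCSP, and at 1894 in PCP, 347 in BLSP, 229 in 6C3, 101 in HEC and 7.88 in THY. The means of Sp7 (20.8 to 50.4 against 6.02 to 63.0 CPM), Runx2 (44.2 to 56.9 against 14.5 to 89.3) and Bglap (1.28 to 62.0 against 0.202 to 32.5) also overlapped between sides. Against 6C3 and HEC alone, a comparison added after seeing the data, Foxo4 (2.42), Foxc2 (-1.55), Foxp1 (-0.55) and Foxp4 (-1.73) remained past the threshold. Foxc1 (0.56, adjusted p = 0.110), Foxo1 (0.41, adjusted p = 0.159), Foxp2 (0.08, adjusted p = 0.780) and Foxo3 (-0.10, adjusted p = 0.743) did not. Against PCP, THY and BLSP alone, 7 members passed and Foxc2 did not (-0.09, adjusted p = 0.655). PCP, named for chondrogenic progenitors, held less chondrocyte marker RNA than SSC, pBCSP and BCSP. The part of the cartilage and bone cell share in these differences was not tested. Blood markers were low throughout, with sums of 12.6 to 22.6 CPM in stem and progenitor libraries and 23.0 to 99.6 downstream, and endothelial markers reached 85.3 CPM in PCP. Of the blood markers, Hba-a1 (means of 0.574 to 1.48 against 16.6 to 39.5 CPM) and Hbb-bs were lower in SSC, pBCSP and BCSP. The means of Cd68 (6.32 to 13.6 against 3.16 to 8.87), Lyz2 and Csf1r overlapped between sides. Muscle markers summed to 5.04 to 9.69 CPM against 16.6 to 48.7. Des, one of them, made up most of this sum (means of 4.56 to 5.96 against 15.4 to 36.3). Stromal markers (Pdgfra, Prrx1, Cxcl12, Lepr, Dcn) summed to 1924 to 3459 against 1989 to 5070. Dcn made up most of the stromal sum, and its means overlapped between sides (1848 to 3076 against 1673 to 3618 CPM). Those of Lepr overlapped too (4.42 to 7.04 against 5.96 to 33.7). The means of Prrx1 (17.5 to 23.1 against 43.9 to 194 CPM), Cxcl12 (25.3 to 64.6 against 112 to 1608) and Pdgfra (37.7 to 58.1 against 79.3 to 141) were each lower in SSC, pBCSP and BCSP than in every downstream population.

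SSC and THY are the pair in which the study measured Foxo1, Foxo3 and Foxc1 by PCR. It reported higher mRNA and, by PCR after m6A pull-down, higher m6A of these genes in SSC. This pair was thus taken with an outcome for them known. In it 28.5% of genes differed, 12.6% higher in SSC and 15.9% lower. Foxp2 (log2 1.94, SE 0.29, adjusted p = 1.1e-04), Foxo4 (2.26, SE 0.63, adjusted p = 0.0126), Foxo3 (1.26, SE 0.33, adjusted p = 0.00905) and Foxc1 (1.20, SE 0.42, adjusted p = 0.0424) were higher in SSC. Foxo1 was 0.80 higher with SE 0.35 and did not pass (adjusted p = 0.0982), and Foxc2, Foxp1 and Foxp4 did not pass either. The calls of Foxo3, Foxo4 and Foxc1 each rest on single libraries. Without THY 1 the values were 1.09, 1.98 and 0.99, without SSC 2 they were 0.89 for Foxo3 and 0.70 for Foxc1, without SSC 1 1.82 for Foxo4, and without THY 2 1.45 for Foxc1, all with adjusted p above 0.05.

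Over the 16 WT input libraries, the log2 levels of Foxo1 and Foxc1 ran most closely together of all pairs of members (Pearson's r = 0.84). Foxo4 ran opposite to Foxp1 (-0.85) and to Foxp4 (-0.75), and Foxc2 ran with Foxp4 (0.73). The 16 libraries are 2 from each of 8 populations, so the points share cell types and these values are descriptions. Of all tested genes, the closest to each member were Adm2 for Foxo1 (0.94), Rnf167 for Foxo3 (0.88), Il17b for Foxo4 (0.96), Mrpl57 for Foxc1 (0.93), Cyfip2 for Foxc2 (0.93), Ptprv for Foxp1 (0.92), Ift88 for Foxp2 (0.91) and Arrb1 for Foxp4 (0.94).

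Promoters of the pair that ran together, Foxo1 and Foxc1, are shown from RefSeq on GRCm38.p6, as 300 bases around the start and 5′ to 3′ on the gene's strand, with CCAAT and its reverse complement ATTGG in capitals.
Foxo1 chr3:52268087-52268386: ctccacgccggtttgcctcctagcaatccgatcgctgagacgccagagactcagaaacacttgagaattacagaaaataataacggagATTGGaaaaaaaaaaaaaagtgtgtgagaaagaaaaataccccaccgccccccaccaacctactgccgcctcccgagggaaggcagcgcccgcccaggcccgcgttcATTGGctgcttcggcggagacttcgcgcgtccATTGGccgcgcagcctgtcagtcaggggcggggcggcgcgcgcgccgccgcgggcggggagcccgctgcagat
Foxc1 chr13:31806396-31806695: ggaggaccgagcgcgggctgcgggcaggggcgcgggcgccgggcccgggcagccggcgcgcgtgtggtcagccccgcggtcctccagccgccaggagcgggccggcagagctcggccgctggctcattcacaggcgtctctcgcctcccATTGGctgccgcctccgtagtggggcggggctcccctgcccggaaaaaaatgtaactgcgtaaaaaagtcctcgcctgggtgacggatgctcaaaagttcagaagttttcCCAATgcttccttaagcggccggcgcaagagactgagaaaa
The Foxo1 window holds 3 copies and the Foxc1 window 2, and 37.4% of 32851 promoters of this length hold at least 1. The windows of Foxo3 and Foxp4 hold none, and 1 of the 3 Foxp1 windows holds 1. The FoxO binding sequence GTAAACA or its reverse complement TGTTTAC is in none of the members' windows and in 3.65% of all promoters. Foxo4, Foxc2 and Foxp2 were not matched in the promoter table.

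Other genes of the pathway were taken from lists. Among 23 tested forkhead genes outside the 8, 4 were higher and 9 lower in the stem and progenitor populations (median log2 fold change -0.39). Foxa2 (4.93), a factor of hypertrophic cartilage, and Foxq1 (2.53) were higher, and Foxs1 (-3.42) was lower. Foxa1, Foxb2 and Foxn4 were also called but had no counts in whole populations, so their fitted fold changes are not given. Foxa1 had 0 to 46 counts in stem and progenitor libraries and 0 to 31 downstream, Foxb2 0 in all 6 against 0 to 39, and Foxn4 0 to 15 against 6 to 257. Of 30 regulators of FoxO, 9 were higher and 10 lower (median -0.14). The kinase Sgk1 (1.35), the acetyltransferase Crebbp (1.65) and the deacetylase Sirt1 (1.21) were higher, while the export receptor Xpo1 (-2.12), the PI3-kinase subunit Pik3cb (-1.25) and the 14-3-3 protein Ywhag (-1.01) were lower.

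Of 29 known FoxO target genes, 11 were higher and 6 lower (median 0.11). The stress protein Sesn2 (2.55) and the metabolic kinase Pdk4 (1.91) were higher, while the cell cycle genes Cdkn1b (-1.64) and Ccng2 (-1.36) were lower. The ubiquitin ligase Trim63 was called higher on 0 to 43 counts against 0 to 6 downstream, and the death ligand Tnfsf10 lower on 0 to 12 counts against 2 to 37. Of 21 skeletal genes that work with FoxC and FoxP, 11 were higher and 6 lower (median 0.36). Ihh (6.20), Runx3 (3.39) and Pth1r (1.499), genes of growth plate chondrocytes, were higher, and the niche genes Kitl (-3.98), Cxcl12 (-3.10) and Ebf3 (-1.94) were lower. The share of called genes was 13 of 23, 19 of 30, 17 of 29 and 17 of 21, beside 51.4% of all genes.

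The IP libraries were then set against the input libraries of the same population. A gene was called m6A-tagged at a log2 ratio of IP over input above 1 with an unadjusted p under 0.05. Between 6.67% (BCSP) and 14.5% (6C3) of tested genes met this rule per population, and the 8 members met it in 23 of 64 cases. The ratio is relative to the other RNA of the same libraries, since no spike-in is described. The median log2 ratio over all genes was between -0.05 (SSC) and 0.03 (HEC) per population. A log2 ratio of 0 thus stands near the median gene and does not mark RNA free of m6A.

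Foxc1 was tagged in all 8 populations, with fitted log2 ratios from 1.82 in THY to 3.08 in pBCSP. Its IP libraries held 525 to 4847 counts. The log2 ratio of single pairs of IP and input was 2.92 and 2.77 in SSC, 2.64 and 3.41 in pBCSP, 1.48 and 2.36 in BCSP, 2.62 and 2.27 in PCP, 2.10 and 1.51 in THY, 1.74 and 2.80 in BLSP, 3.05 and 1.87 in 6C3 and 1.96 and 2.66 in HEC. Every pair lay above the threshold of 1, and stem and downstream pairs overlapped. All 8 calls also passed an adjusted p under 0.05.

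Foxc2, in contrast, had a fitted ratio below 0 in all 8 populations, from -1.04 in pBCSP to -0.07 in SSC, and all 16 single pairs were below 0. It carries the same coding window ctcgacccGGACTcctacaac as Foxc1 and more copies of GGACT per kilobase. Its p was under 0.05 unadjusted in PCP, BLSP, 6C3 and HEC, and the share of all genes below 0 at that p was 17.8%, 22.3%, 21.8% and 22.8% there, beside 16.6% in SSC, 19.2% in pBCSP, 14.7% in BCSP and 21.7% in THY. In HEC (-0.63, adjusted p = 0.0161) and BLSP (-0.84, adjusted p = 0.0334) the IP libraries held less Foxc2 than input beyond the threshold.

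Foxo3 was tagged in SSC (1.85), pBCSP (1.38), BCSP (1.15), THY (1.16) and HEC (1.03), and its ratio in 6C3 was 0.07. Foxo1 was tagged in SSC (1.35), pBCSP (1.35), 6C3 (1.51) and HEC (1.03). Foxo4 was tagged in SSC (1.61), THY (2.28), BLSP (2.01) and HEC (2.70), on 21 to 385 IP counts per library. Foxp4 was tagged in SSC (1.21) and pBCSP (2.35). All 3 FoxO transcripts thus had ratios above 0 in all 8 populations, with tags in different sets of them.

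Foxp1 and Foxp2 were tagged in no population by edgeR's rule, with ratios of -0.02 to 0.78 for Foxp1 and -0.15 to 0.88 for Foxp2. Foxp1 in HEC (0.78, adjusted p = 0.00385) differed from input but stayed under the size required. At an adjusted p under 0.05 in place of the unadjusted p, 18 of the 23 cases stayed, and Foxo1 in pBCSP, Foxo3 in BCSP, Foxo4 in SSC and THY and Foxp4 in SSC were lost. With IP and input of one replicate number as a pair, the p of Foxo4 in SSC was 0.0653. Leaving out single libraries ended calls of Foxo1 in pBCSP (0.88 without input 2) and HEC (0.73 without IP 1, 0.85 without input 2) and of Foxo3 in BCSP (0.96 without input 1), THY (0.90 without IP 1, 0.98 without input 1) and HEC (0.97 without IP 1, 0.92 without IP 2, 0.89 without input 1). It also ended those of Foxo4 in SSC (2.02 and 1.25 without input 1 and 2), THY (1.98 and 2.60) and BLSP (1.79 and 2.05), and of Foxp4 in SSC (0.75 without IP 2, 0.87 and 1.59 without input 1 and 2).

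**Figure D3:**
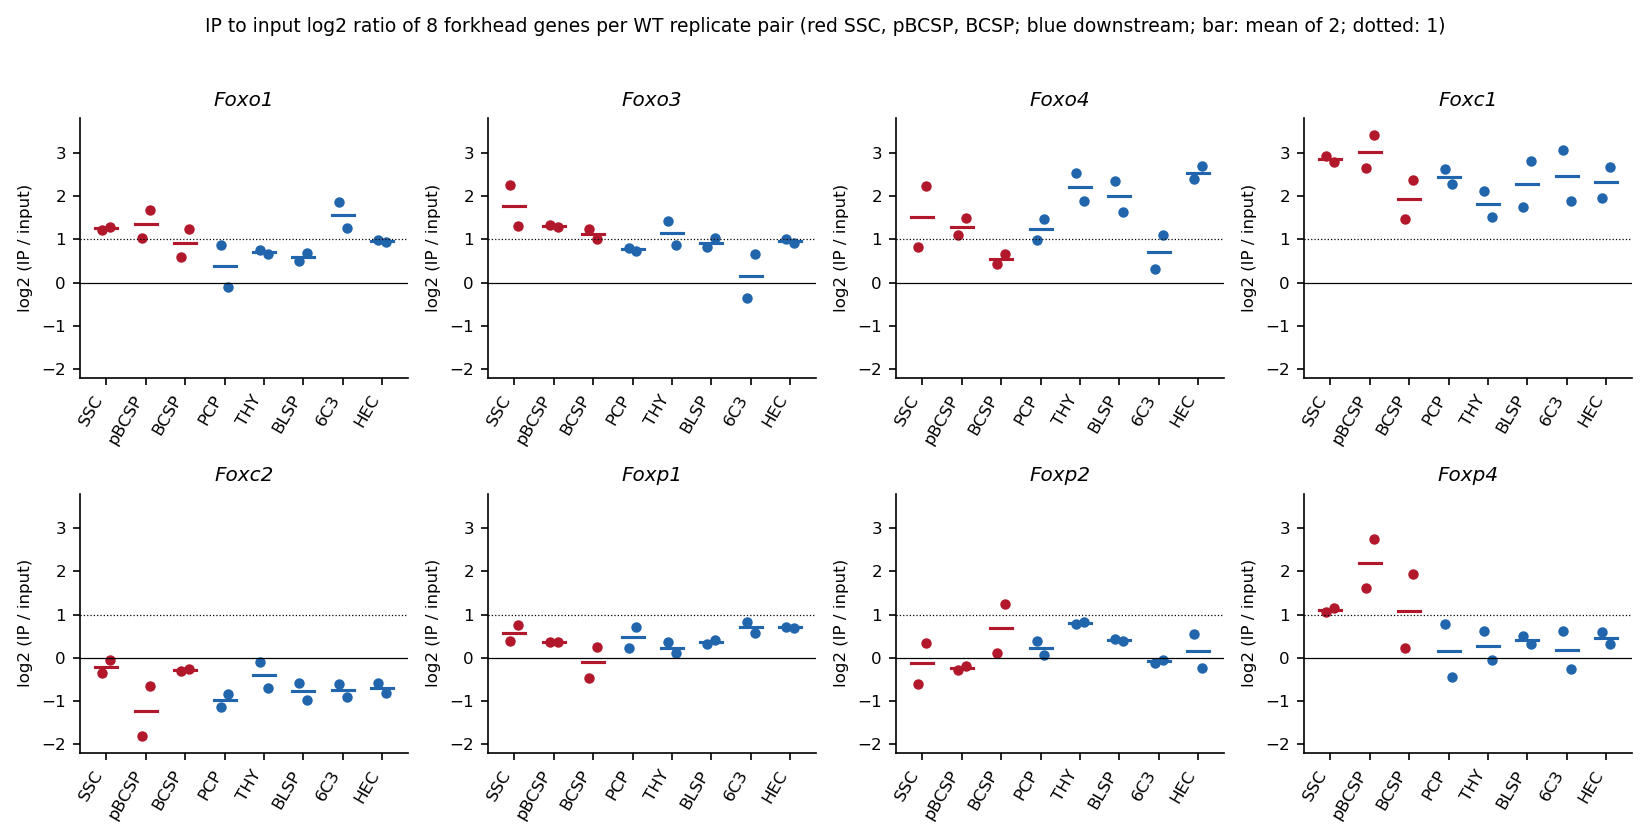
Log2 ratio of IP over input CPM for each pair of libraries of one replicate number in the 8 WT populations, with a bar at the mean of the 2 pairs, a solid line at 0 and a dotted line at the tag threshold of 1 (red for SSC, pBCSP and BCSP, blue for downstream). All 16 Foxc1 points lie above the line and all 16 Foxc2 points lie below 0.

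Whether the ratio differed among populations was tested as the interaction of IP with population over the 32 WT libraries. No member passed among all 8 populations in edgeR, where 0.485% of genes did. Foxp4 (edgeR adjusted p = 0.229) and Foxo3 (edgeR adjusted p = 0.451) were under 0.05 before adjustment, as 7.97% of genes were. DESeq2 called no member either, with 2 under 0.05 before adjustment. With the IP and input pair as a block, both passed, Foxp4 at an adjusted p of 0.00350 and Foxo3 at 0.00115.

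In the contrast of SSC, pBCSP and BCSP with the downstream populations, which called 4.84% of genes, 3.06% with a higher and 1.77% with a lower ratio, Foxp4 and Foxo3 had higher ratios in the stem and progenitor populations. Foxp4 pairs were at 0.24 and 1.95 in BCSP, 1.62 and 2.76 in pBCSP and 1.06 and 1.16 in SSC. The 10 downstream pairs had a lowest, median and highest value of -0.44, 0.41 and 0.78. A single BCSP pair lay within the downstream range, and all 5 others lay above it. The share of all genes whose pairs separate to this degree was not computed. The difference was 1.49 on the log2 scale (SE 0.31, adjusted p = 0.00416). Foxp4 was thus higher in IP relative to input where its mRNA was lower, and both values share the input libraries. Its IP CPM, scaled over all 44 libraries, overlapped between sides, at 15.5 to 69.5 in stem and progenitor libraries and 17.8 to 50.9 downstream. Its input CPM on that scale was 9.67 to 15.5 against 11.6 to 49.8.

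Foxo3 pairs were at 1.25 and 1.00 in BCSP, 1.33 and 1.29 in pBCSP and 2.25 and 1.31 in SSC, against -0.35 to 1.43 downstream with a median of 0.84. The difference was 0.80 (SE 0.23, adjusted p = 0.0403), and it rests on the choice of libraries and scaling. It did not pass with DESeq2 (0.64, adjusted p = 0.0663) or with median-of-ratios size factors (0.64, adjusted p = 0.118). Leaving out 1 of the 32 libraries gave 0.69 to 0.92 and ended the call in 20 of 32 cases. These were, for IP, both libraries of 6C3, BCSP, HEC and SSC and BLSP 1, pBCSP 2, PCP 2 and THY 2, and, for input, 6C3 1, BCSP 1, BLSP 2, HEC 2, pBCSP 1, PCP 1, SSC 1 and THY 2.

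Against 6C3 and HEC alone, neither passed (Foxp4 1.40, adjusted p = 0.0705, and Foxo3 1.01, adjusted p = 0.0843). Against PCP, THY and BLSP alone, Foxp4 passed (1.55, adjusted p = 0.00980) and Foxo3 did not (0.66, adjusted p = 0.181). The other differences were 0.49 for Foxo1 (SE 0.24, adjusted p = 0.304), 0.52 for Foxc1 (SE 0.26, adjusted p = 0.330), 0.40 for Foxc2 (SE 0.25), 0.10 for Foxp2 (SE 0.30), -0.00 for Foxp1 (SE 0.17) and -0.51 for Foxo4 (SE 0.49), and the median over all genes was -0.08.

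Between SSC and THY no member's ratio passed in edgeR, where 0.177% of genes did (0.0631% higher and 0.114% lower in SSC), or in DESeq2. Foxc1 came nearest (1.21, SE 0.50, adjusted p = 0.415). It was the only member under 0.05 before adjustment in edgeR, where 9.72% of genes were, and DESeq2 had 1 such member. Foxo1 was at 0.73 (SE 0.46) and Foxo3 at 0.79 (SE 0.45).

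Of all genes, 4.84% passed in the contrast of stem and progenitor with downstream populations, 3.06% with a higher and 1.77% with a lower ratio. In the lists, 4 of 30 regulators of FoxO passed there. Ratios in the stem and progenitor populations were higher for the kinase Stk4 (1.33), Ywhag (0.83) and Xpo1 (0.72) and lower for the kinase Mapk8 (-0.78). Of 29 FoxO targets, Klf2 (1.66) and Cdkn1a (0.73) passed, and of 28 other forkhead genes, Foxn2 (1.03) and Foxn3 (0.84). Of the 21 skeletal genes 5 passed, all with higher ratios, among them the corepressor Ctbp1 (1.49), the Hedgehog effector Gli1 (1.06) and the growth factor Vegfa (0.93).

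Finally, input libraries labelled Mettl3cko were compared with WT. A change was called at a log2 fold change beyond 0.5 and an unadjusted p under 0.05. No member met this in SSC, where 14% of genes did (6.96% higher and 7.07% lower), or in pBCSP, where 8.36% did (3.88% higher and 4.48% lower), and neither edgeR nor DESeq2 gave an unadjusted p under 0.05 for any member there. In BCSP, where 12.9% of genes met it, 7.22% higher and 5.72% lower, Foxc1 did. Chondrocyte markers summed to 52664 to 106820 CPM in the libraries labelled Mettl3cko and 84410 to 100505 in WT. In pBCSP the sums were 52664 to 61453 against 86041 to 90609 in WT, and in SSC and BCSP they overlapped. Col2a1 made up most of the pBCSP sum (mean 44752 against 73157). The pBCSP means of Matn1 (1285 against 1122) and Acan (960 against 953) were not lower. Blood markers summed to 26.2 to 44.6 CPM against 12.6 to 22.6. In BCSP, osteoblast markers summed to 12228 to 18065 against 8585 to 9800, and Col1a1 made up most of this sum (mean 13503 against 6649). The means of Ibsp (1537 against 2374), Bglap (15.0 against 62.0), Runx2 (47.2 against 56.9) and Sp7 (44.5 against 50.4) were lower than in WT, and their libraries overlapped. The part of these markers in the values below was not tested.

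Foxc1 in BCSP was at 36.7 and 21.2 CPM in WT and at 9.82 and 12.3 CPM in the libraries labelled Mettl3cko. The groups did not overlap, and WT replicate 1 was the highest library. The share of all genes whose groups separate in this way was not computed. The log2 fold change was -1.38 (SE 0.36, edgeR adjusted p = 0.245), and no gene passed an adjusted p in this comparison. Without WT BCSP replicate 1 it was -0.94 and missed the rule (edgeR adjusted p = 0.612). DESeq2 called Foxc1 at an adjusted p under 0.05.

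In SSC, Foxc1 was at 13.8 and 24.7 CPM in WT and a mean of 11.3 in the libraries labelled Mettl3cko (log2 -0.78, SE 0.36, adjusted p = 0.374), and in pBCSP at 14.5 and 9.43 against 14.4 and 11.4 (0.13, SE 0.38). Over the 3 populations together Foxc1 was the only member that met the rule (-0.67, SE 0.22, edgeR adjusted p = 0.0933), where 15.9% of genes met it, 7.23% higher and 8.62% lower, and 6.48% passed an adjusted p. DESeq2 called Foxc1 there at an adjusted p. The fold change in pBCSP exceeded that in BCSP by 1.51, a difference that did not pass (edgeR adjusted p = 0.698).

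Foxo4 was lower in point estimate in all 3 populations, at -0.86 (SE 0.65) in SSC, -0.997 (SE 0.88) in pBCSP and -0.90 (SE 0.88) in BCSP, and passed in none. Its libraries labelled Mettl3cko spread widely, at 0.744 and 5.38 CPM in BCSP, 0.911 and 2.31 in pBCSP and 2.92 and 1.36 in SSC. Foxo1 (-0.36, SE 0.21), Foxo3 (0.09, SE 0.16), Foxc2 (-0.20, SE 0.24), Foxp1 (-0.18, SE 0.21), Foxp2 (-0.06, SE 0.16) and Foxp4 (-0.08, SE 0.28) did not pass over the 3 populations.

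**Figure D4:**
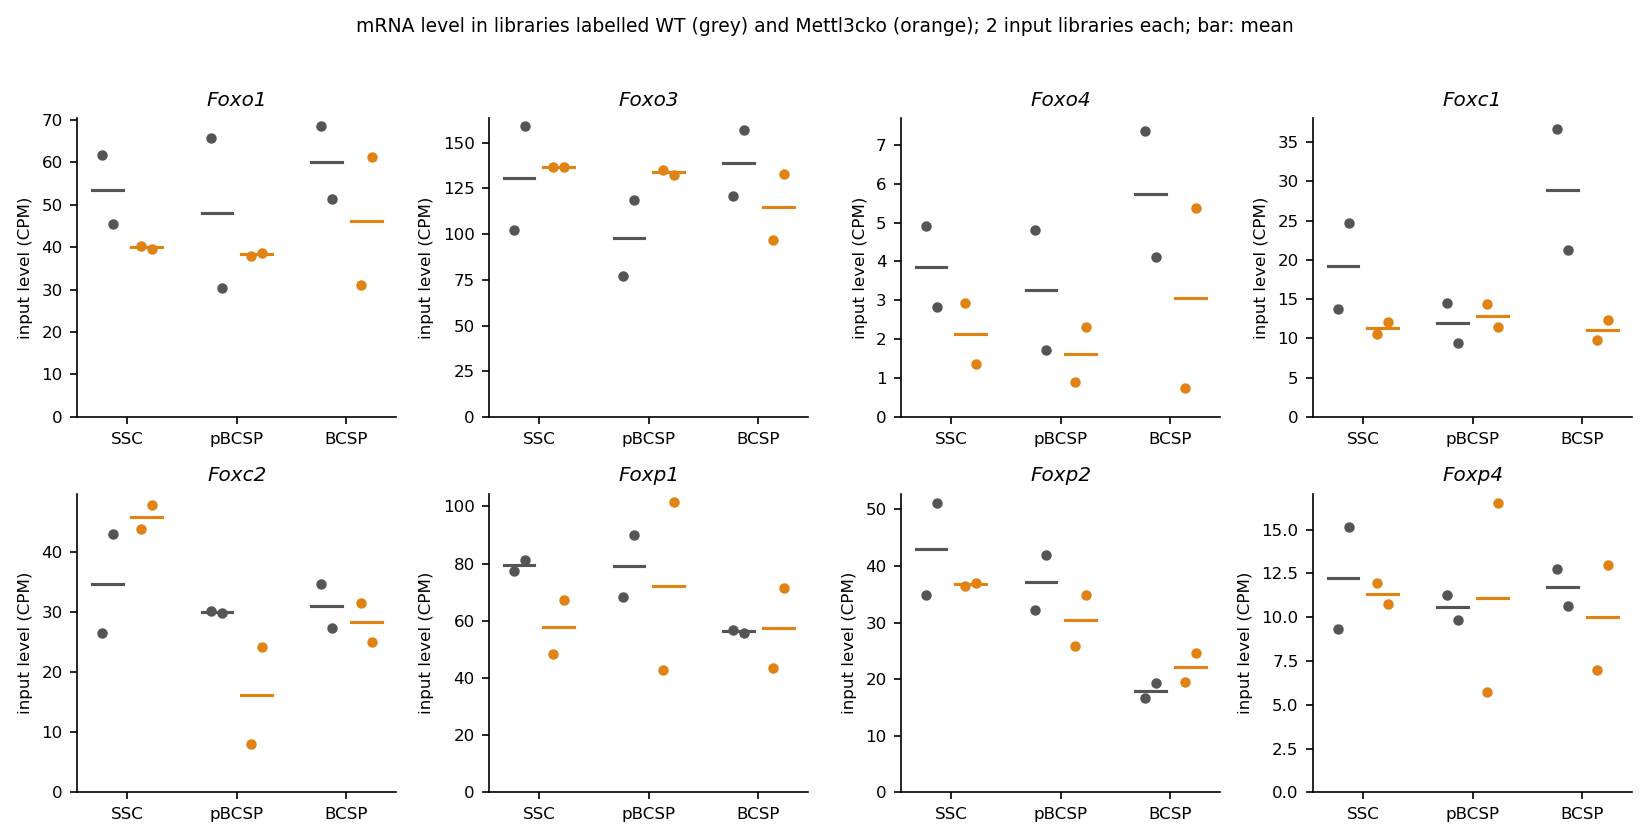
Input mRNA of each forkhead gene in SSC, pBCSP and BCSP of WT libraries (grey) and of libraries labelled Mettl3cko (orange), in TMM-scaled CPM on a linear axis from 0, with 1 point per library and a bar at the mean of 2. Foxc1 in BCSP shows both WT libraries (36.7 and 21.2 CPM) above both others (9.82 and 12.3 CPM), a separation not counted over all genes.

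In the lists, the counts over the 3 populations stand beside 15.9% of all genes that met the rule (7.23% higher and 8.62% lower). An adjusted p was passed by 6.48% of all genes. Of 30 regulators of FoxO, 5 met the rule, 4 of them higher, with the 14-3-3 genes Ywhah (0.80) and Ywhab (0.57) past an adjusted p. Of 29 FoxO targets, 3 were higher and 4 lower, with Sesn2 (0.64, adjusted p = 0.0230) and Klf2 (-1.14, adjusted p = 0.0421) past an adjusted p. Of 21 other forkhead genes, 1 was higher and 3 lower, and Foxj3 (-0.85, adjusted p = 0.0499) passed. Of 21 skeletal genes, 3 were higher and 2 lower, among them Ihh (1.05, adjusted p = 0.00353) and Ebf1 (0.57, adjusted p = 0.0472). The medians of the 4 lists were between -0.08 and 0.04, beside -0.05 over all genes.

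For Foxc1, the ratio of IP to input in the libraries labelled Mettl3cko overlapped WT in pBCSP and lay above it in SSC and BCSP. The share of all genes whose pairs separate in this way was not computed. In SSC its pairs were at 4.22 and 3.79 against 2.92 and 2.77 in WT, in pBCSP at 2.42 and 3.35 against 2.64 and 3.41, and in BCSP at 3.75 and 3.62 against 1.48 and 2.36. In BCSP its input CPM, scaled over all 44 libraries, was 37.8 and 21.9 in WT and 10.1 and 12.8 in the libraries labelled Mettl3cko. Its IP CPM there was 106 and 113 against 136 and 158. In SSC, input was 14.2 and 25.3 against 10.7 and 12.3, and IP 108 and 173 against 201 and 172. The ratio and the mRNA difference of Foxc1 share these input libraries. No member passed an adjusted p in any of the 3 populations with edgeR, and no gene did, which with 2 libraries a group does not show that the ratios were equal. In BCSP the interaction was 1.80 for Foxc1 (SE 0.45, adjusted p = 0.320) and 1.23 for Foxo3 (SE 0.35, adjusted p = 0.336), both under 0.05 before adjustment, as were 10.3% of genes. DESeq2 called both (1.83, adjusted p = 0.0106, and 1.27, adjusted p = 0.0323). In SSC and pBCSP, where 14.5% and 11.9% of genes had an unadjusted p under 0.05, no member did with either tool.

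Several IP libraries labelled Mettl3cko disagreed within a pair of replicates by a larger ratio of counts than any WT pair of IP libraries did for the same gene. Foxp2 held 932 and 14 IP counts in SSC and 941 and 75 in pBCSP, Foxc2 held 23 and 397 in SSC and Foxo4 26 and 242 in SSC. The matching input libraries differed little for Foxp2, at 1063 and 1192 counts in SSC and 882 and 1136 in pBCSP. With such spread, the standard error of the interaction in SSC was 2.03 for Foxp2, 1.67 for Foxo4 and 1.46 for Foxc2 on the log2 scale, so a 2-fold change of the ratio in these genes was not detectable. The limit is not confined to them. On simulated data this comparison recovered, at an adjusted p under 0.05, 0% of log2 changes of 1 and 1% of log2 changes of 2. At an unadjusted p under 0.05 it recovered 17% and 39%.

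**Figure D5:**
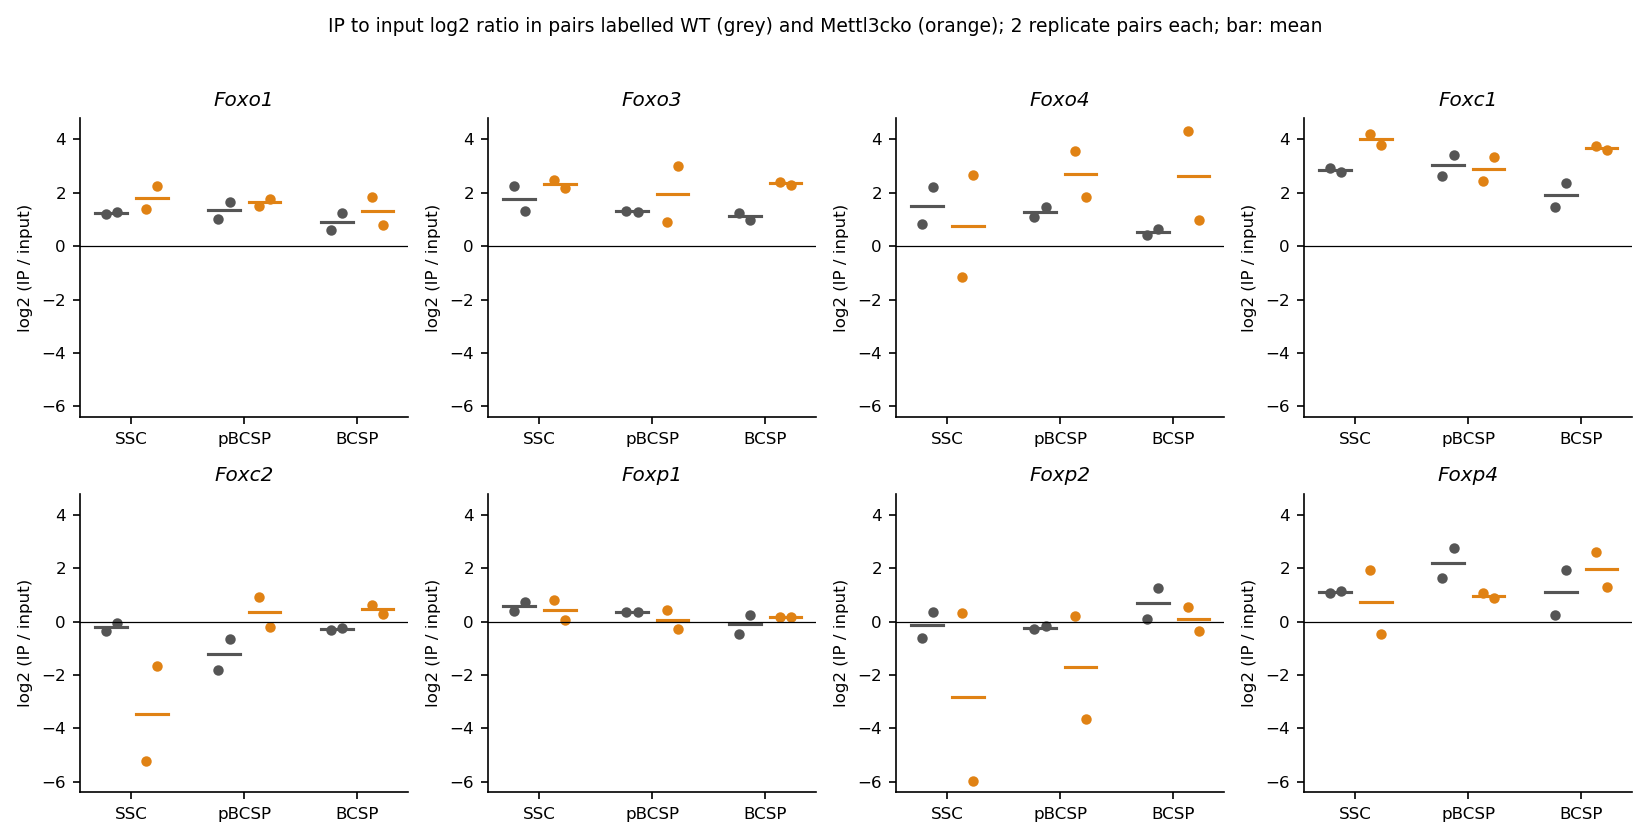
Log2 ratio of IP over input for each pair of libraries in SSC, pBCSP and BCSP of WT (grey) and of libraries labelled Mettl3cko (orange), with a bar at the mean of 2 pairs and a line at 0. Foxp2 falls to -5.97 in 1 of the 2 SSC pairs labelled Mettl3cko, and the Foxc1 pairs labelled Mettl3cko in SSC and BCSP lie above the WT pairs. The latter separation was not counted over all genes.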

How the data were processed

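The authors trimmed reads with fastp 0.20.1, aligned them to GRCm38 with HISAT2 2.2.1 and counted them per gene with featureCounts 2.0.1, and deposited counts without normalization. Strand settings of the counting are not given in the sources used here. The authors also deposited a table of log2 fold changes, p-values and scores (mean normalized counts, standard errors, Wald statistics) from DESeq2 for SSC, and a table of log2 changes of m6A and mRNA, and neither was used. Of 46959 rows, 128 bear 2 dates as names and were left out (at most 0.390% of a library).

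Counts were tested in R 4.3.3 with edgeR 4.0.16 (quasi-likelihood F test, TMM, filterByExpr, Benjamini-Hochberg over all genes of a fit), limma 3.58.1 and data.table (1.17.8), with DESeq2 1.42.0 as an alternative. SE was obtained by dividing the size of a log2 fold change by the root of its F. Ratios of single pairs used a prior count of 2. Figures were drawn with matplotlib 3.10.9 in Python 3.11.15. A comparison of each kind with a single contrast was tested on simulated data, and the tests among all 8 populations were not. The 8 members, all of which are named, and the lists (of each, at most the 3 largest rises and 3 largest falls among calls, and the gene most like each member) were chosen with earlier results of these data known. Groups have 2 libraries each, which the study calls independent experiments, and differ by more than counting noise (a chi-square of at least 25.9 for each degree of freedom). Cells of one sort were split between IP and input in the study, so single-pair ratios join libraries of the same number. The tests took no pairing, and a fit with the pair as a block was an alternative. The differences between replicates correlated at 0.019 to 0.239 across genes in a check of this.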

Additional observations from a re-analysis of the deposited data

Results flagged for a closer look

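The ratio of IP to input was higher at the top of the hierarchy (BCSP, pBCSP, SSC) than downstream for Foxp4 (1.49 on the log2 scale) and Foxo3 (0.80), each by the interaction test over 32 WT libraries. Foxp4 had 5 of 6 stem and progenitor pairs above all 10 downstream pairs, a share not computed for all genes, and Foxo3 did not separate the pairs. The IP CPM of Foxp4 overlapped between sides, and its input mRNA was lower in the stem and progenitor populations.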

How the results depend on the processing

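The number of members called changed by more than 1.5 times as follows, where the comparisons with fewer downstream populations were chosen after seeing the data. For mRNA of stem and progenitor populations against downstream, 8 became 4 against 6C3 and HEC. For the IP ratio in that contrast, 2 became 0 against 6C3 and HEC and 1 with DESeq2, median-of-ratios size factors or PCP, THY and BLSP alone, and 1 to 2 on leaving out a library. Among the 8 populations, 0 became 2 with no filter on low counts and 2 with the replicate block on IP and input pairs. Between genotypes, 0 became 2 with DESeq2 for the IP ratio in BCSP, and with no filter mRNA gave 1 for 0 in SSC, 1 for 0 in pBCSP and 2 for 1 over the 3 populations. Leaving out a library gave for the IP ratio between genotypes 0 to 1 in BCSP, 0 to 1 in SSC and 0 to 2 in pBCSP. It gave for mRNA between genotypes 0 to 3 in BCSP, 0 to 2 in SSC, 0 to 2 in pBCSP and 1 to 3 over the 3 populations, and 1 to 5 between SSC and THY.

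Values that changed sign were small or not called, except Foxo3 mRNA against 6C3 and HEC (-0.10). The IP ratio of Foxp1 in stem and progenitor populations was 0.18 against PCP, THY and BLSP and -0.17 to 0.0714 without single libraries. That of Foxp2 was -0.0664 with DESeq2, -0.0662 with size factors, -0.0412 with no filter, -0.0201 against PCP, THY and BLSP and -0.30 to 0.28 without single libraries. Without single libraries Foxc1 in pBCSP was -0.49 to 0.12 (IP ratio) and -0.15 to 0.44 (mRNA) between genotypes, and Foxc2 between SSC and THY was -0.19 to 0.81 (IP ratio) and -0.27 to 0.45 (mRNA). The cause was not tested. In fits with a library left out of 32, the spread per gene was kept from the full fit. Of 1792 member results without 1 library, 1616 kept direction and side of the threshold, and none of the 492 that started from a call changed sign.

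Over all genes, DESeq2 called 1755 (SSC), 983 (pBCSP) and 717 (BCSP) genotype differences of the IP ratio and no filter 90, 476 and 129, where edgeR called 0. Between SSC and THY the IP ratio gave 45 genes, 420 with DESeq2, 257 with no filter and 357 with the block. In stem and progenitor populations it gave 1227, 1953 with DESeq2 and 285 against 6C3 and HEC, and among the 8 populations 123, 1004, 866 with no filter and 923 with the block. Tags fell from 15581 to 9336 at an adjusted p, and genotype calls in pBCSP rose from 1339 to 2244 with no filter and to 2069 in 1 fit over 12 libraries.

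Replicate numbers were not taken to pair populations, as 2 of 28 correlations between input libraries of WT populations exceeded 0.1, nor WT with Mettl3cko, where none of 3 did. With the number as a replicate block, mRNA calls were lost for Foxc1 between SSC and THY (adjusted p = 0.0503), Foxo1 among the 8 populations (adjusted p = 0.0559) and Foxo3 in stem and progenitor populations (adjusted p = 0.0587). The block changed no other mRNA call. Low input counts of Foxo4 downstream, replicate spread in the IP libraries labelled Mettl3cko and groups of 2 libraries all limit the precision.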
